A study of Mus musculus with 3 samples.

Results

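One hour after isoproterenol (ISO) was added to differentiated brown adipocytes in culture, 113 of 6800 measured genes differed from the unstimulated cells by at least 1.74-fold, which is a log2 ratio of 0.8. Signals were 1.74-fold or more higher for 100 genes (1.47% of the genes measured) and lower for 13 (0.191%). The members of these lists were found from the ratio of the signal at 1 h of ISO to the signal at 0 h. A gene counted as measured if a probe set that carried its symbol and no other reached a signal of 100 on either of these arrays, and the probe set with the highest mean of both signals stood for the gene. The genes are described here by the molecular function of their products, as regulators of transcription and RNA, signalling proteins, enzymes, secreted proteins, membrane proteins and others. Because the lists were chosen on this ratio, the ratios describe the members and test nothing.

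ISO is an agonist of all β-adrenergic receptors. In brown adipocytes these receptors couple through the stimulatory G protein to adenylyl cyclase, and the cyclic AMP that is formed activates protein kinase A (PKA). PKA phosphorylates CREB, which binds cyclic AMP response elements in promoters and switches on a first set of genes without new protein synthesis. Many products of that first set act back on the signal, as phosphodiesterases, phosphatases, repressors and factors that destroy mRNA, while others belong to the fuel and heat metabolism of the brown adipocyte.

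The cells were iBATs, a line of brown preadipocytes from the stromal vascular fraction of interscapular brown fat of newborn C57BL/6 mice, immortalized with a viral large T antigen and differentiated with insulin and indomethacin. All arrays held RNA from day 8 of differentiation, so that the 0, 1 and 2 h groups shared the line, the large T antigen and the differentiation agents and differed in the time with ISO. The comparison asks which transcripts differ after the first hour of stimulation. Each time point had 1 array, without a replicate, so neither an error between samples nor a p-value can be attached to a ratio, and the 1.74-fold limit describes size alone. The cells carry no nerve or vessel supply, and fewer responding cells cannot be told apart from less RNA per cell.

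The arrays were alike in their controls. Over 18 probe sets for added hybridization controls the median log2 ratio of 1 h over 0 h was 0.07, with a range from -0.03 to 0.25, and over the 6800 genes it was -0.02. Ribosomal 18S RNA, read near its 3′ end, was brighter at 1 h (1821.2) than at 0 h (1299.7), and its part in the ratios was not tested. For 5907 genes (86.9%) the log2 ratio lay within 0.3 of 0. All 6 adipocyte markers that had a probe set were measured and none of them passed the threshold, whereas of 6 brown adipocyte markers Ucp1 passed. None of 4 endothelial, 6 macrophage and leukocyte and 4 muscle markers was measured, and their highest signal at 0 or 1 h was 58.9, for Cd68. Of 6 markers of preadipocytes and fibroblasts 5 were measured, with summed signals over the list of 8367.2 at 0 h and 8815.5 at 1 h, and none passed. The share of undifferentiated cells, and its part in the ratios, was not tested. Housekeeping genes, 11 of which were measured, had a median log2 ratio of 0.02, from -0.34 for Polr2a to 0.18 for Ywhaz.

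The promoters of the genes that rose were read for the letters of the cyclic AMP response element, as these are the sequences that CREB recognizes. RefSeq promoter windows of 300 bases, from 250 before to 50 after a start site, were at hand for 82 of the 100 genes that rose, for all 13 that fell and for 5625 of the 6800 measured genes (build GRCm38.p6). The full element TGACGTCA, which reads the same on both strands, was present in the windows of 6 of the 82 genes (7.32%), against 216 of 5625 measured genes (3.84%) and 0 of the 13 that fell. Those 6 stretches are shown with up to 30 bases on each side, the element in capitals, on the strand of the gene and ending at the last base before the start site at most. They belong to Btg2 (chr1:134079284-134079351, minus strand), Ccnl1 (chr3:65958250-65958297, minus), Dusp1 (chr17:26508578-26508645, minus), Errfi1 (chr4:150854989-150855056, plus), Maff (chr15:79347461-79347519, plus) and Slc25a25 (chr2:32424179-32424246, minus). The first base of the element lay 166, 18, 143, 51, 29 and 150 bases before the start site, in the same order.
Btg2: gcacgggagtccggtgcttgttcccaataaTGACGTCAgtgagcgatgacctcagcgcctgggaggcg
Ccnl1: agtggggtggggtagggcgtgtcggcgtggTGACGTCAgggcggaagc
Dusp1: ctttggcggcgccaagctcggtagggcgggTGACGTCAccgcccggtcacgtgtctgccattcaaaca
Errfi1: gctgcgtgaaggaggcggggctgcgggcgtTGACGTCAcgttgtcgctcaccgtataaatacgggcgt
Maff: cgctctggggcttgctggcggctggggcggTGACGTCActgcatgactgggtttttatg
Slc25a25: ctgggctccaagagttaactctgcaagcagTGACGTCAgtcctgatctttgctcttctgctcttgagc

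The 5-letter part TGACG, searched on both strands (CGTCA on the strand of the gene) and contained in every full element, was present in the windows of 47 of the 82 genes that rose (57.3%). Its share was 39.3% among the measured genes with a window and 4 of 13 (30.8%) among those that fell. Among genes that rose it was 19 of 27 for regulators (70.4%), 8 of 19 for enzymes (42.1%) and 6 of 14 for signalling proteins (42.9%). The secreted, membrane and other classes were not counted separately. Genes of each held the 5 letters too, among them Il6, Ucp1 and Tuba4a. Whether the regulators differ from the other classes in this share was not tested. Genes with a signal of at least 100 already at 0 h had it in 23 of 45 cases (51.1%). The windows of the genes that rose had a median GC content of 63.7%, against 61.7% for measured genes, and the part of base composition in these shares was not tested. A match of letters is a description and not a binding site. Of the 20 largest rises 18 had a window, and 4 of these held the 5 letters without a full element in the last 120 bases before the start site. These 4 are shown up to that site, with the 5 letters in capitals on either strand: Nr4a2 (chr2:57124004-57124123, minus strand), Nr4a1 (chr15:101266757-101266845, plus), Junb (chr8:84978749-84978868, minus) and Pck1 (chr2:173152963-173153072, plus).
Nr4a2: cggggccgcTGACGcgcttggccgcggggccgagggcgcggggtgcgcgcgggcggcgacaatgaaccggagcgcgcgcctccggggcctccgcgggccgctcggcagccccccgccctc
Nr4a1: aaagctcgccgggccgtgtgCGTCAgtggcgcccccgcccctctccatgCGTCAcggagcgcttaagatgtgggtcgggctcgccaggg
Junb: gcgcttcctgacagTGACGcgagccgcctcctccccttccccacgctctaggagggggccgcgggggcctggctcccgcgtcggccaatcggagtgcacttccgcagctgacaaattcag
Pck1: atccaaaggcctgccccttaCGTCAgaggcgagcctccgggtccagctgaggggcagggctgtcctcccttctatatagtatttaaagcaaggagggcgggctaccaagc

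Other promoter letters were set beside these. The AP-1 element TGACTCA, on either strand, was in the windows of 5 of 82 genes that rose (6.10%). It was in 1 of 13 that fell (7.69%) and in 4.14% of those measured. TATAAA between 40 and 15 bases before the start site was found for 6 of 82 genes that rose (7.32%), against 1.30% of the measured genes. The 6 were Adamts1, Errfi1, Fgf21, Fos, Gadd45g and Irf4. Of the genes that fell 2 of 13 had it (15.4%), Ccn1 and Rnd3, so it was not particular to the rises. The TATA letters of Errfi1 are visible downstream of its element in the stretch above.

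Rises were larger than falls. The median log2 ratio was 1.49 over the 100 genes that rose, of which 31 were at least 4-fold higher and a further 44 at least 2-fold. Over the 13 that fell the median was -1.09, with 7 at least 2-fold lower and 0 at least 4-fold lower. Just inside the threshold lay Dusp14 (0.81), Smad6 (0.82) and Errfi1 (0.82) on the higher side and Mxd3 (-0.80), Kat5 (-0.84) and Ccn1 (-0.87) on the lower. Just outside lay Nfkbiz (0.77), Irx3 (0.76) and Gclc (0.76), and Nudt12 (-0.80, short by a small margin), Txndc11 (-0.78) and Ankef1 (-0.77).

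Many of the genes that rose came from a signal near background. At 0 h 44 of the 100 were below 100, as were 173 of the 6800 measured genes. A gene of this kind was measured only through the 1 h array and had to be higher there, though not by 1.74-fold. The other 56 reached 100 on both arrays, as did 6357 of the measured genes. When signals below 100 were set to 100, 77 of the 100 remained past the threshold, including 21 of those 44. The order of the largest ratios depended on this choice. As deposited it began with Nr4a3, Nr4a2, Nr4a1, Il6 and Sik1, and with low signals set to 100 it began with Nr4a1 (4.46), Irs2 (3.05), Ddit4 (3.03), Ier3 (2.99) and Sik1 (2.74). The robust spread of the log2 ratio, which contains real change and noise, was 0.21 among genes with a mean signal below 200 and 0.099 among those of 1000 or more. Of the 100 genes 26 had other kept probe sets, 37 in all, and all 37 were higher at 1 h, 29 of them by the threshold or more.

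**Figure D1:**
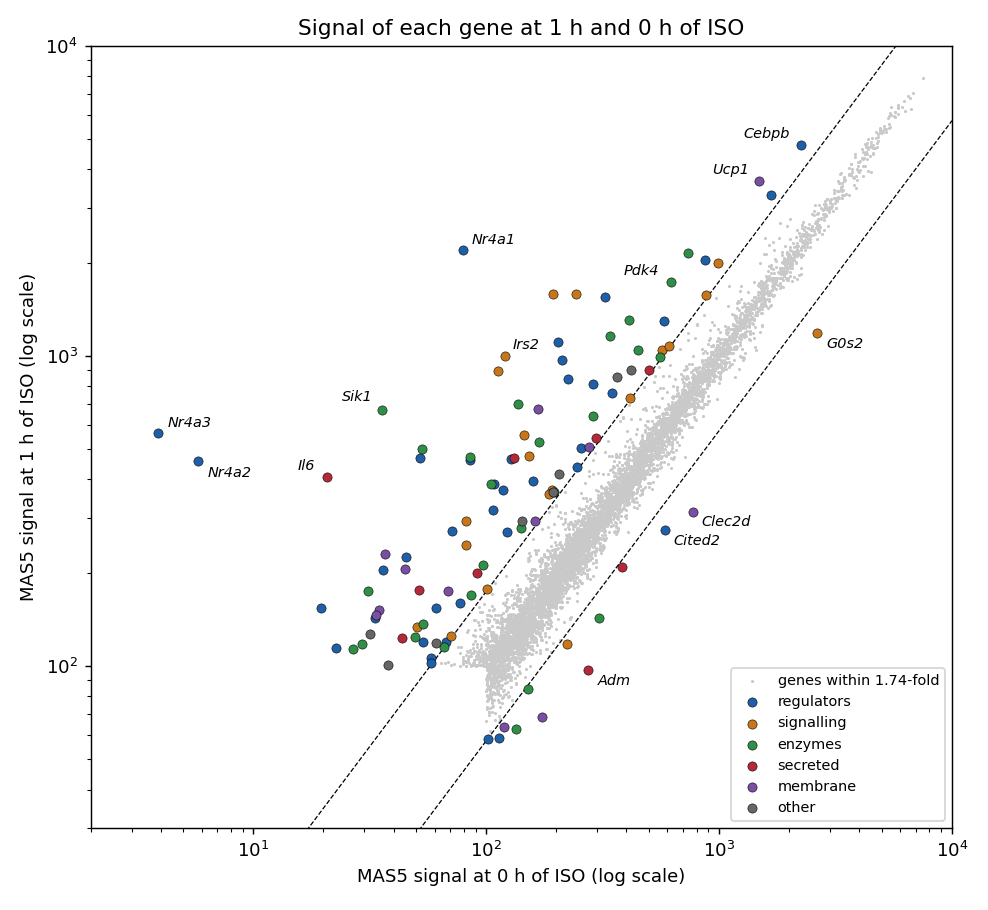
MAS5 signal of each measured gene at 0 h (x axis) and 1 h (y axis) of ISO, both on log scales, with genes past the threshold coloured by molecular function and the dashed lines at 1.74-fold. The 100 genes above the upper line include 44 with a 0 h signal below 100, and 13 genes lie below the lower line.

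Regulators of transcription and RNA were the largest class, with 35 of the 100 genes that rose and a median log2 ratio of 1.65. The share of regulators among all measured genes was not counted, so the size of the class shows no excess of regulators. Of the 35, 17 were below 100 at 0 h and counted as measured only through the 1 h array. With low signals set to 100, 26 of the 35 were past the threshold. Nuclear receptors led. The 3 NR4A genes encode orphan receptors that act without a known hormone and are classical immediate-early genes of cyclic AMP. Nr4a3 rose from 3.9 at 0 h to 566.5 at 1 h, and its signal at 2 h was 460.6. In the same order of times Nr4a2 had 5.8, 459.6 and 216.0, and its other 3 kept probe sets had log2 ratios from 3.55 to 5.14. Nr4a1 had 79.4, 2204.4 and 1015.2. All 3 were therefore low only at 0 h, with log2 ratios of 7.18, 6.31 and 4.80 as deposited and 2.50, 2.20 and 4.46 with the 0 h signal set to 100. Vdr, the vitamin D receptor, had 52.0, 468.7 and 652.5, a log2 ratio of 3.17. These 4 were the nuclear receptors past the threshold among 15 measured, and the median of the 15 was 0.06. All 4 counted as measured only through the 1 h array, where they were high, so the share of 4 in 15 owes to the filter. Of the 11 receptors with at least 100 on both arrays 0 rose past the threshold. The receptors of fatty acid and lipid metabolism that had signals of at least 100 throughout did not pass, with Ppara at 217.1 and 365.5 (0.75), Pparg at 1232.6 and 1624.7 (0.40), and Esrra at 210.0 and 213.0 (0.02).

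Basic leucine zipper factors, which bind DNA as dimers, rose for 8 of 28 measured genes. Junb and Fos counted as measured only through the 1 h array, and 6 of the 26 with at least 100 on both arrays rose. Over all genes 1.47% rose, and 56 of the 6357 with at least 100 on both arrays. Fosl2, Atf3 and Maff are AP-1 or Maf family members that had at least 100 on both arrays. Fosl2 went from 225.0 to 844.7, with 983.8 at 2 h (log2 ratio 1.91), Atf3 from 117.5 to 369.8, with 336.4 at 2 h (1.65), and Maff from 106.9 to 318.6, with 417.8 at 2 h (1.58). The better known AP-1 genes were dimmer. Junb went from 19.5 to 153.6 (2.98) and Fos from 45.3 to 224.4 (2.31), and with low signals set to 100 Junb no longer passed (0.62) while Fos did (1.17). Jun (199.3 to 329.4, 0.72) and Jund (1198.5 to 1487.2, 0.31) did not pass, and Fosb was not measured, with 0.7 and 11.8. Nfil3, a repressor that competes with clock output factors, went from 210.5 to 968.2 (2.20), and Bach1, a haem-responsive repressor, from 255.9 to 503.6 (0.98). Cebpb, a driver of adipocyte differentiation, was the brightest regulator that rose, with 2254.0, 4795.9 and 4690.5 (1.09), and its other kept probe set gave 2.12. Its relatives Cebpd (0.56) and Cebpa (0.30) did not pass. Creb1 itself had a log2 ratio of 0.09, and Crem, whose product includes a repressor induced by cyclic AMP, was below 100 on both arrays, with 38.9 and 78.1.

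Helix-loop-helix and PAS factors included 7 genes that rose and 1 that fell among 32 measured. Of the 23 with at least 100 on both arrays 4 rose. All 4 ID genes, whose products capture helix-loop-helix factors and keep them off DNA, were on the list. Id3 had 202.5, 1110.7 and 711.5 (log2 ratio 2.46), Id2 had 108.1, 386.3 and 319.6 (1.84), and Id1 had 286.5, 811.6 and 309.5 (1.50). For each of these 3 genes the 1 h array was the highest, and Id1 was close to its 0 h signal again at 2 h. Id4 was dim, from 22.7 to 114.0, and had only 0.19 with low signals set to 100. The clock repressor Bhlhe40 went from 324.2 to 1547.3, with 1609.7 at 2 h (2.25), and Per1, a core clock repressor, from 71.5 to 272.4, with 149.1 at 2 h (1.93). Hes1, a repressor known as a Notch target, went from 77.2 to 159.4 (1.05, or 0.67 with low signals set to 100) and was at 63.1 at 2 h. Clock (0.22), Arntl (0.36) and Per3 (-0.14) were measured and did not pass.

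Other DNA-binding factors that rose came from several families. The zinc finger gene Klf4 had 127.6, 466.8 and 307.3 (1.87) and Klf10 had 158.9, 395.4 and 289.7 (1.32), the 2 that passed among 13 Kruppel-like, EGR and SP genes. Egr1, often grouped with them as an immediate-early gene, was already at 633.3 at 0 h and at 799.2 at 1 h (0.34). Irf4, a factor that is known to drive thermogenic genes after β-adrenergic stimulation, went from 36.2 to 204.8 (2.50, or 1.03 with low signals set to 100). Csrnp1, a nuclear protein first found as a target of axin, went from 33.4 to 142.6 (2.09), and Hoxa5, a homeobox factor of positional identity, from 53.7 to 119.3 (1.15), and neither passed with low signals set to 100 (0.51 and 0.26). Zfp516, which is known to bind the Ucp1 promoter in brown fat, went from 58.0 to 102.5 and on to 183.7 at 2 h, and its ratio at 1 h (0.82) rested on a dim 0 h signal. Of 103 numbered zinc finger genes Zfp516 was the only one that rose and Zfp458 the only one that fell (0.971% each way, against 1.47% and 0.191% over all genes), and 0 of 11 forkhead and SOX genes passed, a family too small to stand apart from those shares.

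Cofactors and general transcription factors among the rises were Irf2bp2, Skil, Bcl3 and Taf7. Irf2bp2, a corepressor, went from 582.0 to 1298.7 (1.16), with its other 3 kept probe sets between 1.04 and 1.36, and Skil, an inhibitor of SMAD signalling, from 346.4 to 759.4 (1.13). Bcl3, an atypical IκB protein, went from 60.9 to 153.8 (1.34) and Taf7, a subunit of TFIID, from 67.3 to 119.4 (0.83), and neither passed with low signals set to 100 (0.62 and 0.26). A separate list of 54 coactivators and corepressors, set by symbol, does not hold the cofactors named above. In that list 0 rose, near the share over all genes, and 1 fell. Its member Ppargc1a, the coactivator of mitochondrial and thermogenic genes, was below the threshold at 1 h with 293.4, 487.6 and 1029.9 (0.73). Of 38 histone lysine demethylases and methyltransferases 0 passed, likewise near the share over all genes, and the highest was Kdm6b with 385.3 and 632.6 (0.72), and Kdm3a, the gene of JMJD1A, had 421.6 and 528.7 (0.33).

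Factors that act on RNA formed the rest of the class. Btg2 and Tob1, antiproliferative proteins that recruit a deadenylase to mRNA, had 85.6, 461.6 and 210.6 (2.43) and 1666.5, 3314.3 and 3240.0 (0.99). Zfp36, which marks cytokine mRNAs for decay, went from 57.7 to 106.6 (0.89, but 0.09 with low signals set to 100). Of 22 genes grouped by symbol as mRNA decay factors 4 rose, counting Noct, described among the enzymes as a phosphatase. Btg2 and Zfp36 counted as measured only through the 1 h array. Of the 20 with at least 100 on both arrays 2 rose. The subunits of the deadenylase complex itself did not pass. Ccnl1, a cyclin of the splicing machinery, went from 868.0 to 2033.4 (1.23). Impact, which restrains the translation-control kinase GCN2, went from 245.7 to 437.4 (0.83). Sde2 (122.8 to 269.8, 1.14) is uncertain, since its other 2 kept probe sets had 0.34 and 0.54.

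**Figure D2:**
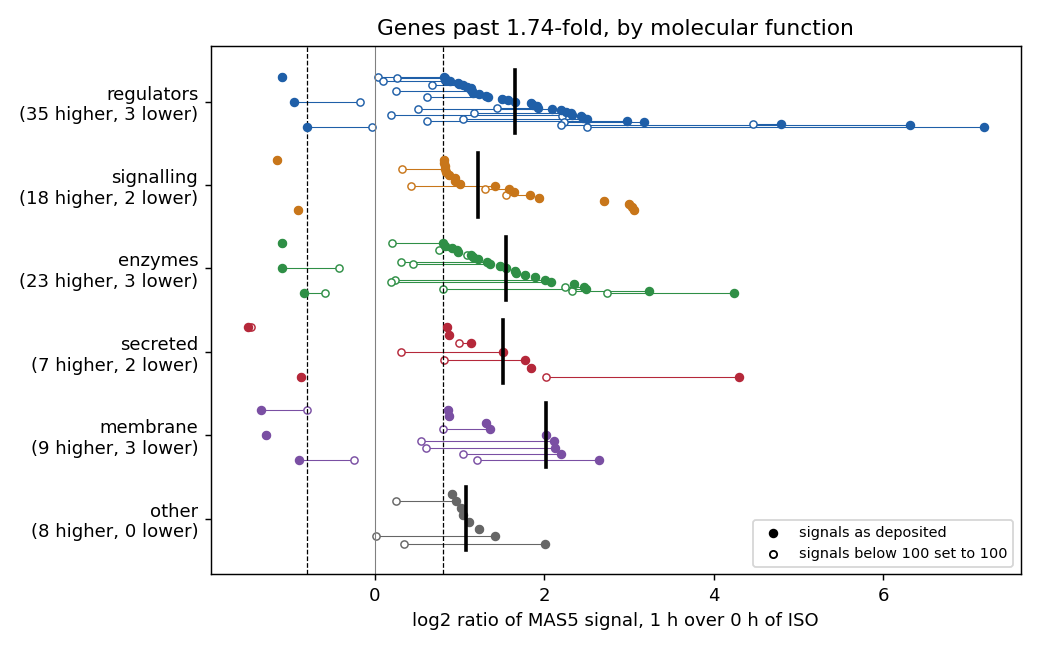
Log2 ratio of MAS5 signal, 1 h over 0 h of ISO, of each gene past the threshold, by molecular function, as deposited (filled) and with signals below 100 set to 100 (open). Black bars are class medians of the rises, the dashed lines the threshold, and the open points of 23 of the 100 rises lie inside it.

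Signalling proteins that modulate rather than catalyse made up 18 of the 100, with a median log2 ratio of 1.21, and only 4 of them were below 100 at 0 h. Its 4 rises of at least 4-fold all lay between signals above 100. Irs2, an adaptor of the insulin receptor, had 120.3, 999.0 and 921.1, an 8.30-fold rise, while its relative Irs1 went from 765.5 to 939.6 (log2 ratio 0.30). Ddit4, an inhibitor of mTORC1, had 193.1, 1581.8 and 1485.0, 8.19-fold. Ier3, an immediate-early gene of survival signalling, had 112.7, 897.6 and 709.1, 7.96-fold. Gadd45g, a stress protein of the GADD45 family, had 243.4, 1585.1 and 1307.1, 6.51-fold. All 4 were lower at 2 h than at 1 h, and far above their 0 h signals on both later arrays. The related Gadd45b went from 207.3 to 314.6 (0.60) and Gadd45a from 596.2 to 678.7 (0.19).

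Inhibitors of receptors and G proteins came next. Arrdc3, an α-arrestin known to bind activated β-adrenergic receptors, went from 145.7 to 557.1, with 603.6 at 2 h (1.94). Txnip, another α-arrestin, which restrains glucose uptake, went from 570.3 to 1046.3 (0.88). Rgs2, which speeds the shut-off of G proteins, went from 879.0 to 1572.5 (0.84), although of its other 2 kept probe sets 1 fell short, at 0.64. The cytokine-signal inhibitors Cish and Socs2 were the 2 of 12 SOCS and SPRY genes that passed. Of the 9 with at least 100 on both arrays 1 passed. Cish went from 82.2 to 245.9 (1.58) and Socs2 from 186.1 to 358.0, with 714.7 at 2 h (0.94). Socs3 had -0.07. Errfi1, an inhibitor of the EGF receptor whose promoter is shown above, went from 609.0 to 1075.4 and 1318.5, and Smad6, an inhibitor of BMP signalling, from 100.5 to 177.2. Hilpda and G0s2, both inhibitors of the lipase ATGL, moved in opposite directions. Hilpda had 82.2, 293.2 and 480.8 (1.84), and G0s2 had 2638.8, 1183.3 and 1104.6, a log2 ratio of -1.16.

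Phlda1, Grasp, Sash1, Ier5, Tcim and Enc1 completed the class. Phlda1, a pleckstrin homology-like protein, went from 152.9 to 477.5 and 788.9 (1.64). Sash1, a scaffold, was the brightest of these, with 990.6, 1988.7 and 2791.6 (1.01). Ier5, an immediate-early gene, went from 191.2 to 369.3 (0.95), and Enc1, an actin-binding protein, from 414.1 to 734.8 (0.83). Grasp and Tcim rose from 50.2 and 70.4 and lost the threshold with low signals set to 100 (0.42 and 0.32).

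Enzymes accounted for 23 genes that rose, with a median log2 ratio of 1.55, and 17 of them passed with low signals set to 100. Some act on the cyclic AMP signal itself. Sik1, a kinase that is switched off by PKA and that holds CREB coactivators in the cytosol, had 35.6, 669.3 and 481.7, a log2 ratio of 4.23 as deposited and 2.74 with the 0 h signal set to 100. Its relatives Sik2 (851.5 and 917.0, 0.11) and Sik3 (294.6 and 253.6, -0.22) did not pass. The genes of the cyclic AMP phosphodiesterases, Pde4d and Pde4b, were the 2 of 8 measured phosphodiesterases that rose. Of the 6 with at least 100 on both arrays 1 rose. Pde4d had 104.7, 387.8 and 644.1 (1.89). Pde4b had 53.4, 136.6 and 126.5 (1.36) and did not pass with low signals set to 100 (0.45). Pde3b, the phosphodiesterase through which insulin limits lipolysis, was bright and did not pass, with 1708.1 and 1905.7 (0.16).

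Among 121 genes grouped as protein kinases by symbol 3 rose (2.48%, against 1.47% over all genes), namely Sik1, Pim3 and Pim1. Sik1 and Pim1 counted as measured only through the 1 h array. With at least 100 on both arrays 1 of 117 kinases rose, against 56 of 6357 genes of all kinds. Pdk4 and Pkdcc, outside that group, also encode kinases. Pim3, a survival kinase, had 735.6, 2150.0 and 2011.0 (1.55), and its other kept probe set also gave 1.55. Pdk4, which phosphorylates pyruvate dehydrogenase and diverts the cell from glucose to fatty acid oxidation, had 620.6, 1729.7 and 2587.5 (1.48), the only gene of 23 in glucose and pyruvate metabolism that passed. Hk2 (552.9 and 923.0, 0.74) and Pfkfb3 (185.6 and 313.2, 0.75), which open and speed up glycolysis, stayed below the threshold at 1 h. Pim1, a relative of Pim3, went from 96.4 to 211.8 (1.14). Pkdcc, a kinase of the secretory pathway, passed (0.97) from 86.3, but not with low signals set to 100 (0.76).

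Among 45 phosphatase genes all 4 that rose encode dual-specificity phosphatases, which inactivate MAP kinases. Dusp10, Dusp5 and Dusp14 counted as measured only through the 1 h array. Of the 36 phosphatase genes with at least 100 on both arrays 1 rose, Dusp1, against 56 of 6357 genes of all kinds. Dusp1, which carries a full element in its promoter, had 341.4, 1163.5 and 588.5 (1.77). Dusp10 had 85.5, 473.2 and 451.4 (2.47), and it remained at 2.24 with low signals set to 100. Dusp5 (29.3 to 117.6) and Dusp14 (65.8 to 115.2) did not pass on that scale. Dusp6, an ERK-specific member, had 165.2 and 153.0 (-0.11).

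Small GTPases had 4 rises and 1 fall among 24, with 3 rises among the 20 with at least 100 on both arrays. Rasd1, a RAS-like protein known to restrain adenylyl cyclase signalling, had 168.2, 527.1 and 423.8 (1.65), Rhou had 141.7, 279.2 and 341.6 (0.98) and Rhob had 194.8, 365.0 and 259.5 (0.91). Gem, of the RGK family that blocks calcium channels, was dimmer, with 31.1, 175.2 and 225.1 (2.49, or 0.81 with low signals set to 100). Rnd3, an atypical small GTPase that lacks GTP hydrolysis, fell from 304.0 to 142.5 and was at 240.1 at 2 h.

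Metabolic and other enzymes that rose served several pathways. Pck1, which makes the glycerol backbone for re-esterification of fatty acids in adipocytes and is a classical cyclic AMP target, had 137.3, 702.5 and 976.2, a 5.12-fold rise. Lpin1, the phosphatidic acid phosphatase of triglyceride synthesis, had 286.3, 641.0 and 812.2 (log2 ratio 1.16), and its other kept probe set gave 0.97. With Hilpda they were the 3 of 28 triglyceride genes that rose, G0s2 being the 1 that fell. Of the 27 with at least 100 on both arrays 2 rose. Dgat1 (1569.7 and 2401.5, 0.61), the lipase genes Lipe (315.1 and 311.5, -0.02) and Pnpla2 (591.2 and 555.7, -0.09), and all 15 genes of fatty acid synthesis did not pass. A list of 15 genes is too small to stand apart from the share over all genes.

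Ptgs2, the inducible cyclooxygenase of prostaglandin synthesis, had 53.2, 501.9 and 360.5 (3.24, or 2.33 with low signals set to 100). Tiparp, a mono-ADP-ribosyltransferase, had 411.1, 1302.1 and 1352.6 (1.66), with 1.60 and 1.65 from its other kept probe sets. Noct, or nocturnin, a rhythmic phosphatase, went from 449.6 to 1044.1 and 1491.1 (1.22). Usp2, a deubiquitinase under clock control, had 49.6, 123.7 and 114.2 (1.32) and did not pass with low signals set to 100 (0.31). Enzymes of hyaluronan and amino sugar synthesis passed for 2 of 11 genes, and for 1 of the 9 with at least 100 on both arrays. Has2, a hyaluronan synthase, was dim (26.9, 113.9 and 225.5) and had 0.19 with low signals set to 100, and Uap1, which makes its sugar nucleotide substrate, had 556.4, 991.4 and 2098.1 (0.83), while its other kept probe sets did not pass (0.56 and 0.72). Ugdh, which makes the other substrate, had 807.0 and 1263.3 (0.65).

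**Figure D3:**
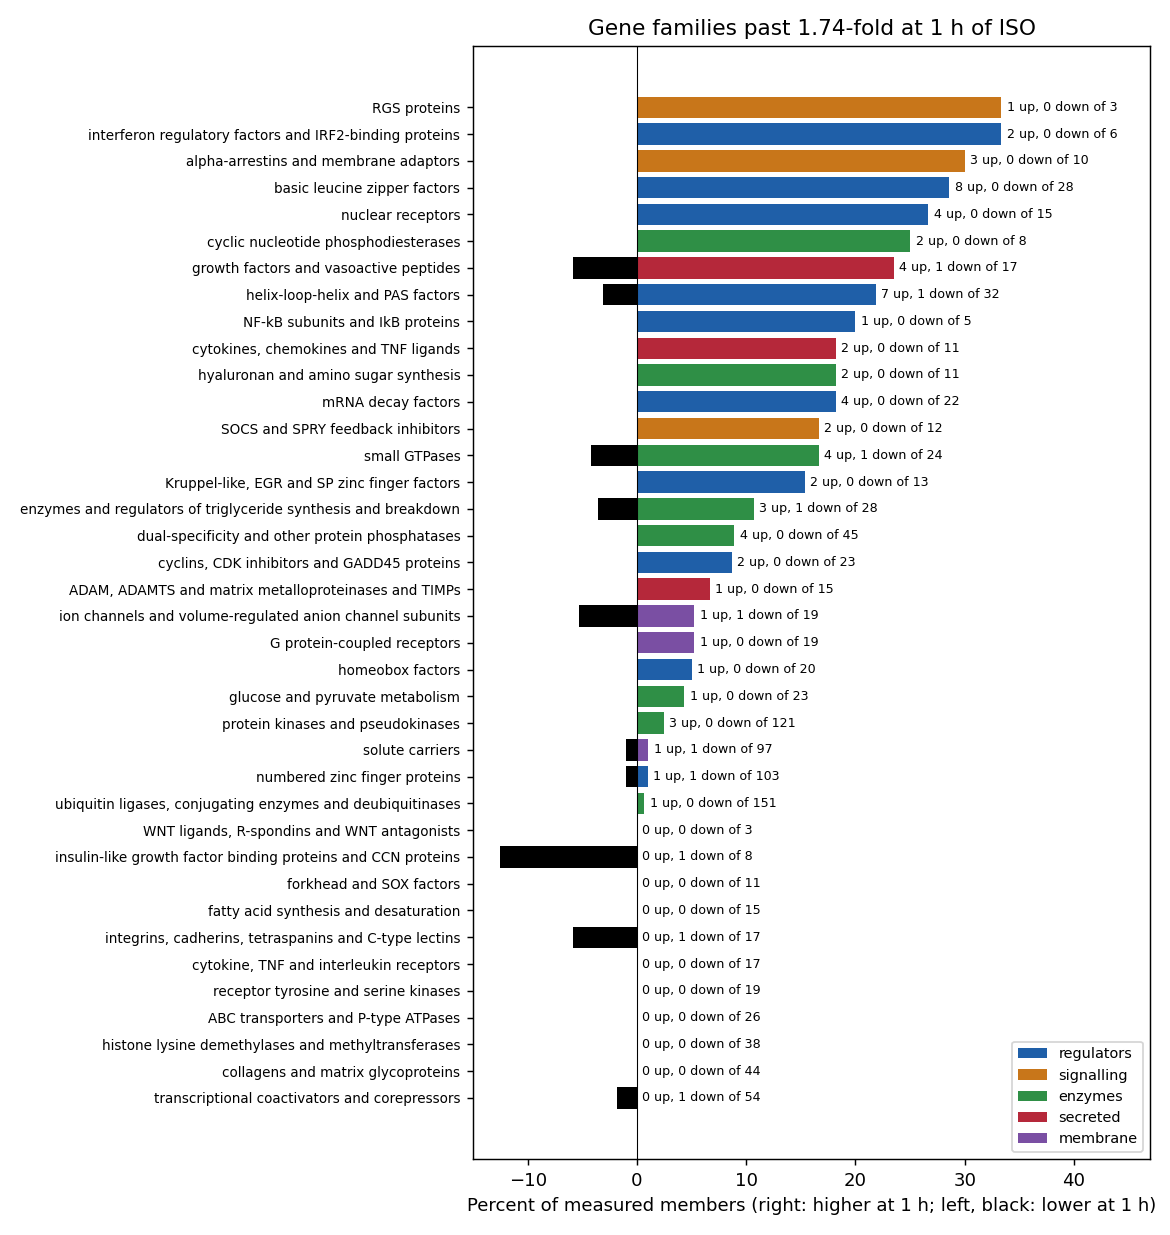
Percent of the measured genes of each of 38 gene families, grouped by symbol, that were at least 1.74-fold higher (right, coloured by class) or lower (left, black) at 1 h than at 0 h of ISO, with counts beside the bars. Genes rose in 27 families and in none of the other 11, and small families such as the 3 RGS genes reach high percentages with 1 gene. Genes below 100 at 0 h entered these percentages only through the 1 h array, as all 4 nuclear receptors that rose did.

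Genes for secreted proteins were 7 of the 100, with a median log2 ratio of 1.51. Il6, a cytokine that brown fat releases on adrenergic stimulation, had 20.7, 406.6 and 981.6, a log2 ratio of 4.30, or 2.02 with the 0 h signal set to 100. The neutrophil chemokine Cxcl1 had 131.3, 470.3 and 611.4 (1.84), and its other 2 kept probe sets gave 0.77 and 1.94. These were the 2 of 11 cytokine and chemokine genes that passed, and Ccl2 (615.1 and 932.7, 0.60) did not. Of the 8 with at least 100 on both arrays 1 passed. Inhba, the subunit of activin A, had 51.5, 175.8 and 270.1 (1.77, or 0.81 with low signals set to 100). Fgf21, a metabolic hormone, had 43.3, 123.6 and 149.7 and did not pass on that scale (0.31). Angptl8, which takes part in the inhibition of lipoprotein lipase, had 90.9, 199.8 and 145.5 (1.14), and Fgf7, a growth factor for epithelial cells, had 295.6, 542.6 and 611.4 (0.88). Adamts1, a matrix protease, had 499.5, 903.6 and 777.7 (0.86). Vegfa, the angiogenic factor of brown fat, was below the threshold with 525.5 and 824.5 (0.65). Of 44 genes for collagens and matrix glycoproteins 0 passed, near the shares over all genes (1.47% higher and 0.191% lower), Thbs1 being the highest at 0.74.

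Membrane proteins contributed 9 rises with a median log2 ratio of 2.02, which was 0.88 when low signals were set to 100, as 5 of the 9 were below 100 at 0 h. Ucp1, the uncoupling protein of the inner mitochondrial membrane through which brown fat makes heat, was the brightest of them, with 1485.7, 3673.2 and 4166.1, a 2.47-fold rise. The other brown adipocyte markers Cidea (788.1 and 786.9), Cox7a1 (2578.3 and 2466.7) and Cox8b (791.9 and 686.5) did not pass, nor did Zic1 (173.2 and 276.3, 0.67). Thbd, the endothelial and mesenchymal receptor for thrombin known as thrombomodulin, had 167.2, 676.4 and 943.3 (2.02). Ackr3, a scavenger receptor for the chemokine CXCL12, had 36.7, 230.0 and 284.9 (2.65, or 1.20 with low signals set to 100). It was the only 1 of 19 G protein-coupled receptors that rose, and 0 of the 18 with at least 100 on both arrays did. Kcne4, a potassium channel subunit, had 44.8, 205.3 and 154.1 (2.20, or 1.04).

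Solute carriers had 1 rise and 1 fall among 97 (1.03% each way, against 1.47% and 0.191% over all genes). Slc25a25, a mitochondrial carrier of ATP-magnesium and phosphate with a full element in its promoter, had 33.7, 146.1 and 136.5, which did not pass with low signals set to 100 (0.55). Cbarp, which dampens calcium channels, had 34.8, 152.1 and 147.7 and did not pass on that scale either. Pdpn (podoplanin, 68.2 to 174.4) rose from below 100. Pvr, an adhesion receptor, went from 161.4 to 292.9 (0.86), with its other 3 kept probe sets between 0.94 and 1.16, and Emd, emerin of the nuclear envelope, from 276.4 to 508.4 (0.88). No cytokine receptor (0 of 17), receptor kinase (0 of 19) or ABC transporter and P-type ATPase (0 of 26) passed. Lists of this size are too small to stand apart from the 1.47% that rose and 0.191% that fell over all genes.

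The remaining 8 genes that rose had a median log2 ratio of 1.08. The chaperone genes Dnaja4 (31.6, 127.4 and 133.7) and Bag3 (142.6, 293.1 and 389.1) had log2 ratios of 2.01 and 1.04, the first from a signal near background and at 0.35 with low signals set to 100. Coq10b, which binds coenzyme Q, had 366.0, 858.5 and 1061.3 (1.23), and Tuba4a, a tubulin, had 417.3, 904.7 and 1045.1 (1.12). Midn (205.8 to 416.7) and the autophagy gene Atg101 (194.1 to 363.5) passed between signals above 100, and Osgin1 (37.9 to 101.0) and Nap1l5 (61.1 to 119.0) did not once low signals were set to 100.

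The 13 genes that fell were spread over the same classes, 3 regulators, 3 enzymes, 3 membrane proteins, 2 secreted and 2 signalling proteins. Both secreted products, adrenomedullin (Adm), a vasodilator peptide, and the matricellular protein Ccn1, had several probe sets. Adm had 274.6, 97.1 and 141.8, a 2.83-fold fall, and its other kept probe set had a log2 ratio of -1.62. Ccn1 had 381.6, 209.2 and 267.1 (-0.87), and its other 3 were lower still, between -1.66 and -0.96. The relative Ccn2 had -0.41. Clec2d, a lectin-like ligand of natural killer cell receptors, had 769.4 at 0 h and 315.2 at 1 h, and then 1098.6 at 2 h, above its starting signal.

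G0s2, with a 2.23-fold lower signal, was the brightest gene that fell. Cited2, which competes for the coactivators CREBBP and EP300, had 584.7, 274.6 and 370.4 (-1.09), and those coactivators had 0.07 (Crebbp) and -0.46 (Ep300). Cdc42ep3, an effector of CDC42, had 221.2, 117.6 and 74.9, the lowest signal being that at 2 h. Lrrc8d, a subunit of the volume-regulated anion channel, fell from 174.3 to 68.7, while its partner Lrrc8a had 220.8 and 252.8. The falls of Smug1 (a DNA repair glycosylase, 134.0 to 62.9), Kat5 (a histone acetyltransferase, 150.5 to 84.3), Slc16a4 (of the monocarboxylate carriers, 118.7 to 63.6), Zfp458 (113.1 to 58.5) and Mxd3 (a partner of MAX, 102.0 to 58.4) ended below 100, and none of these 5 passed when low signals were set to 100. With that setting 8 of the 13 remained.

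**Figure D4:**
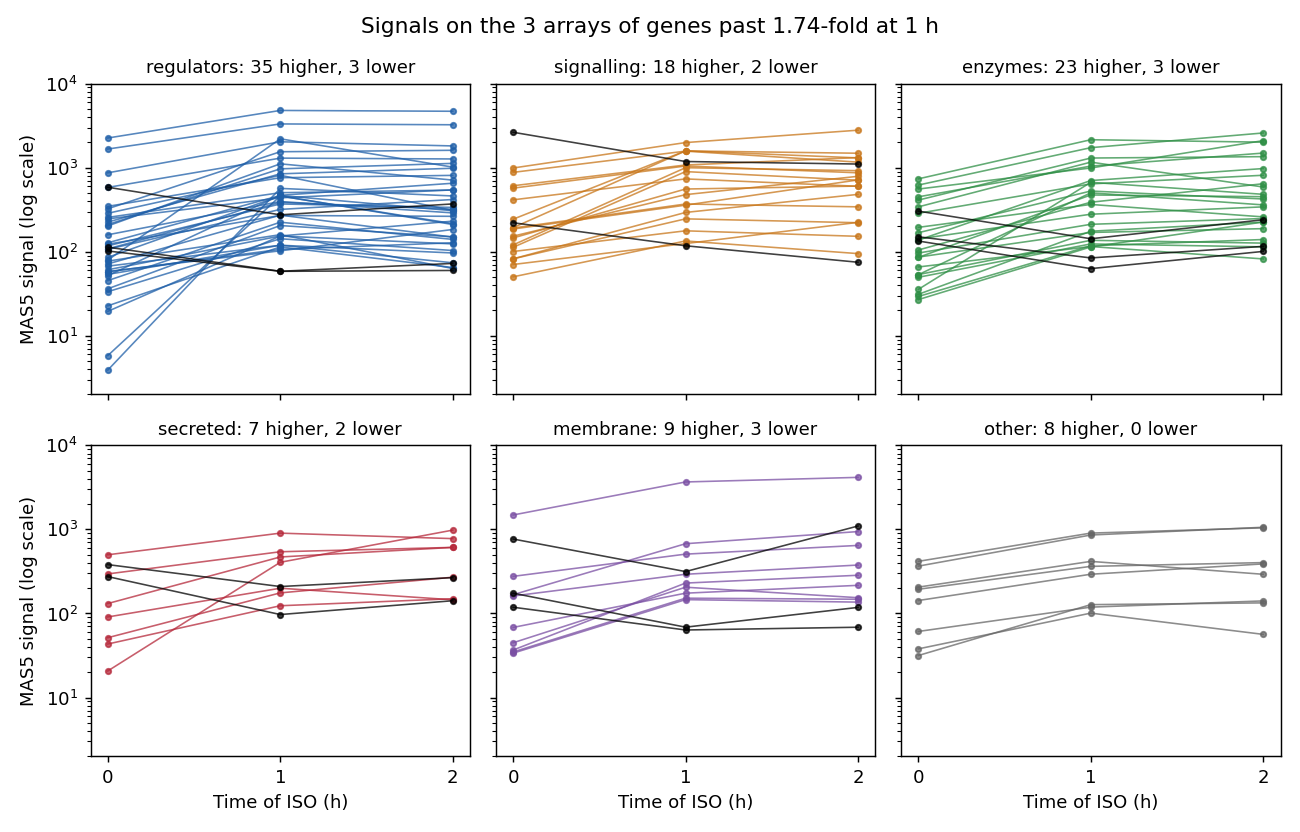
MAS5 signal (log scale) of each of the 113 genes at 0, 1 and 2 h of ISO, 1 panel for each class, coloured for genes higher and black for genes lower at 1 h than at 0 h. The 1 array of each time point is a point, and at 2 h 24 of 35 regulators that rose lay below their 1 h signal. The 1 h array was used to choose the genes, so this step is not independent of the choice. The share among all measured genes is not given.

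The 2 h array was not used to choose the genes, but the 1 h array was, so that a gene with a high 1 h signal is more likely to be listed and the step from 1 h to 2 h is not independent of the choice. Of the 100 genes that rose 52 had a lower signal at 2 h than at 1 h and 48 a higher. Among regulators 24 of 35 were lower, among signalling proteins 11 of 18, enzymes 10 of 23, secreted proteins 2 of 7, membrane proteins 3 of 9 and the other genes 2 of 8. The share of all measured genes that were lower at 2 h than at 1 h is not given here, and differences between the classes were not tested. The helix-loop-helix and PAS genes were lower at 2 h for 6 of 7, Bhlhe40 being the exception. Genes that were higher still at 2 h included Il6, Pck1, Pdk4, Pde4d, Thbd and Ucp1. Among those that fell, 11 of 13 were above their 1 h signal on the 2 h array, all but G0s2 and Cdc42ep3. A low 1 h signal likewise made these genes more likely to be listed.

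Genes that act downstream of the receptor were listed as well. Among 26 measured genes for G protein subunits, adenylyl cyclases, PKA subunits, anchoring proteins and receptor kinases 0 passed in either direction, with a median log2 ratio of -0.02, as over all genes, and a list of this size would hold few genes past the threshold at the overall share. The values ran from -0.40 for Adcy3 to 0.24 for Prkar2b, a regulatory subunit of PKA. Gnas, the stimulatory G protein, had 2506.4 and 2556.5 (0.03), and the catalytic subunits Prkaca and Prkacb had -0.36 and 0.04. Of 6 measured genes of the CREB, CRTC and SIK list Sik1 alone rose, and the coactivator genes Crtc1, Crtc2 and Crtc3 were below 100 on both arrays.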

How the data were processed

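Total RNA of iBATs was hybridized to Affymetrix mouse arrays. The authors computed MAS5 signals (named in the submitters' processing notes; version not given there), and deposited them as an intensity on a linear scale for every probe set. On each array these deposited intensities average 100.0 once the outer 2% on either side is left out, and the filter on absent calls of the methods is not applied in them. Depth has no meaning for arrays; their number, 1 per time point, limits the precision. Probe sets were named through the platform annotation and RefSeq gene identifiers: of 45101 probe sets 34958 had 1 symbol, 932 several and 9211 none, and 34754 were matched with 0 symbols changed. After the filter 10195 probe sets of 6800 genes remained. 0 columns of values were left unused, and signals listed as 0 were given 0.1.

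Python 3.11.15 (numpy 2.4.6, pandas 2.3.3, scipy 1.17.1) gave the ratios and matplotlib 3.10.9 the figures, and the calculation was tested on simulated data. The robust spread is the scaled median absolute deviation. Every gene past the threshold may be named, with its order inside a class set by its log2 ratio, along with family members, edge genes, markers and pathway genes. Each gene was put in 1 class by hand from the known function of its protein, and families were defined by symbol. The members, classes, families and lists were chosen with earlier results of these data known. The 2^0.8 threshold is the size the study used for 1 h of ISO. No test was run, since no time point has a replicate. The alternatives were 4 other filters on low signal, 2 treatments of low signals, 2 scalings, 3 ways to choose the probe set and a 2-fold threshold. Some genes and sequences are not reported here.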

Additional observations from a re-analysis of the deposited data

Results flagged for a closer look

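Probe sets without exactly 1 gene symbol entered no comparison above, and some of them changed by the same size. Of 494 probe sets with no symbol here and a signal of at least 100 on either array, 15 were at least 1.74-fold higher at 1 h and 3 lower. The largest log2 ratio among them was 1.53, from 72.9 to 210.3, with 417.1 at 2 h, and the brightest went from 1367.5 to 2394.2. Of 371 probe sets with several symbols 1 was higher and 0 were lower. It is shared by Ptp4a1, a phosphatase gene, and Gm13363, and went from 758.0 to 1332.6. Which gene gave that signal cannot be told apart.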

How the results depend on the processing

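With a signal of at least 100 required on both arrays, 56 genes rose and 6 fell, and the rises held 18 regulators, 12 enzymes, 3 secreted, 4 membrane and 5 other genes. A minimum of 200 on either array gave 8 falls, with 4 secreted and 5 other genes among the rises, and no filter gave 2187 rises and 2190 falls. Setting signals below 100 to 100 left 8 falls and 5 other genes that rose, adding 32 to each signal left 7 falls, any kept probe set gave 26 falls, and a 2-fold threshold left 7 falls and 10 signalling genes that rose. The remaining 78 of 96 counts stayed within 1.5 times the reported value. Of the 113 genes 75 passed under all 6 alternatives for the ratio that could read them, and 0 turned direction. Setting low signals to 100 ended 28 calls, adding 32 ended 19, the median over kept probe sets 4 (Sde2, Socs2, Uap1 and Kat5), quantile normalization 2 (Mxd3 and Kat5), and leaving out probe sets with a suffix for shared sequence 1 (Sde2), with 17 genes then not read. No scaling moved the median of all genes by 0.1 or more on the log2 scale. No paired analysis was possible because there is 1 array per time point, and for the same reason no array could be left out. A ratio against a 0 h signal such as 3.9 or 5.8 depends on how low signals are treated, and its size as deposited is not a measured fold.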
